A study of Homo sapiens with 6 samples.

Results

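The enzymes that build cholesterol and long-chain fatty acids were followed in IL-4-treated macrophages after knockdown of a long noncoding RNA. The set was a list of 31 named genes, of which 30 had counts in a table of 17042 genes. ELOVL6 was not analysed here. All 30 passed the filter on low counts, which kept 13405 genes. The list covers 8 genes of mevalonate and isoprenoid synthesis, 12 of the route from squalene to cholesterol, 2 sterol transport proteins, 4 genes of fatty acid synthesis and 4 of elongation and desaturation.

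Cells make cholesterol from acetyl-CoA through mevalonate, isoprenoids and squalene, and the early sterols lose their methyl groups before the last ring reductions. Fatty acids start from the same acetyl-CoA and are then elongated and desaturated. The membrane-bound transcription factors SREBP-1 and SREBP-2 switch on both routes when sterols are scarce, together with the promoter-binding factors NF-Y and Sp1. In macrophages these routes feed membrane growth and phagocytosis, and they run alongside uptake and efflux of lipoprotein cholesterol.

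The cells were THP1, a human monocytic leukaemia line. In both groups the phorbol ester PMA (100 ng/mL, 24 hours) drove the change to macrophages, and interleukin-4 (IL-4), a cytokine of tissue-repair macrophages, followed at 20 ng/mL for 24 hours. The 3 knockdown libraries came from cells given siRNA against RP11-184M15.1 in a lipid reagent before IL-4. The 3 control libraries are labelled WT, and their transfection is not described. Differences from targeting the RNA and from the transfection therefore cannot be told apart here. The level of RP11-184M15.1 was not analysed here, since no gene carried that name. Nothing in the labels says that replicates were separate cultures, so the spread behind each p-value is that of these libraries and may be purely technical. In such bulk RNA, fewer cells of a kind and less RNA per cell cannot be told apart.

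The libraries held 10450043 to 14181343 counts, and mitochondrial genes took 2.31% to 3.01% of them in the controls and 2.39% to 2.48% in the knockdown. All 12 macrophage markers had counts. Of these, CD14, ITGAX and CD163 rose and LYZ fell in edgeR's quasi-likelihood test at an adjusted p under 0.05. That threshold was passed by 2.83% of all genes tested. Of 7 IL-4 response markers CCL17, CCL22 and TGM2 fell and 0 rose. The IL-4 markers that did not pass went both ways. ALOX15 (-6.33%) and F13A1 (-18.5%) had lower means in the knockdown, and CD209 (13.3%) and CISH (6.20%) higher ones. The IL-4 markers summed to between 6347 and 6934 CPM (counts scaled to library size) in the controls and between 5577 and 5841 CPM in the knockdown. Most of these sums was TGM2, with means of 4754 CPM in the controls and 4206 CPM in the knockdown. The part of these marker changes in the results on lipid genes was not tested. Markers of B cells, fibroblasts and epithelium summed to at most 6.64, 4.04 and 1.30 CPM in any library, and T cell markers were not analysed here.

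The sequences before the transcription starts are shown first, because they are a property of the genes and not of the counts. The list was drawn from routes that SREBPs switch on together with NF-Y and Sp1. Motif shares of the list are therefore not independent of how it was drawn up. The RefSeq promoter table (GRCh38.p14) had an entry for 27 of the 31 genes, and none for ACAT2, FDFT1, SQLE and FASN. Motifs were sought in the 250 bases before each RefSeq start. Printed here, 5′ to 3′ on the gene's strand, is the stretch of that window that lies before the first base of the gene in GENCODE 29. It is given for the 3 genes that changed and for FDPS, a gene of the same route with a fold change near 0. Capitals mark CCAAT, the box bound by NF-Y, on either strand, so that ATTGG is the same box read on the other strand.
HMGCS1, chr5:43313513-43313662, minus strand: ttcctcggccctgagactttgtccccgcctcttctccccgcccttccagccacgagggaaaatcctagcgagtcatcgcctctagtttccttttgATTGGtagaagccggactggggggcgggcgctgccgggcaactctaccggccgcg
MSMO1, chr4:165327419-165327622, plus strand: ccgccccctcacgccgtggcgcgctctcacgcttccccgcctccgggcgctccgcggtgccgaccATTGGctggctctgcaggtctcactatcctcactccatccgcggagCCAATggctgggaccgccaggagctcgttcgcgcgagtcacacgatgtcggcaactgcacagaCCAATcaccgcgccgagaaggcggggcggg
TMEM97, chr17:28318950-28319094, plus strand: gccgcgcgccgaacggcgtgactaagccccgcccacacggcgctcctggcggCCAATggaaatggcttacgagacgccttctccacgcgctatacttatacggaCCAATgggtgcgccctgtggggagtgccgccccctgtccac
FDPS, chr1:155308616-155308747, plus strand: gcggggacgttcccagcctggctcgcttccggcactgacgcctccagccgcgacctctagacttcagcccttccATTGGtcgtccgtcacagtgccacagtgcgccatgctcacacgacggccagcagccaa

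The full MSMO1 window held 4 CCAAT boxes, 3 of them in the printed stretch. The TMEM97 window held 3, with 2 printed, the FDPS window 3, with 1 printed, and the HMGCS1 window 2, with 1 printed. HMGCS1 has a second RefSeq start, whose window is not shown. Of the 27 genes with an entry, 21 (77.8%) had at least 1 CCAAT box in a window, against 41.7% of 9780 tested genes with an entry and 37.0% of all 27305 genes in the promoter table. At least 2 boxes in 1 window stood in 15 of the 27, against 1477 of the 9780 tested genes. MVK and NSDHL had the most, with 5 each. The genes without a box were PMVK, LBR, CYP51A1, FADS1, FADS2 and ELOVL6.

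The shares of 3 other motifs were counted in the same way. GGGCGG, the GC box of Sp1, stood in 24 of 27 genes (88.9%), against 73.7% of the tested genes. CACGTG, an E-box, stood in 2 of 27 (7.41%), against 11.4%. The sterol regulatory element searched as TCACNCCAC was in 0 of 27, against 1.20% of the tested genes, which says only that these letters were not in these windows. Both strands were searched for every motif, and a match is a description of the sequence and not a measured site. CCAAT boxes stood before the 3 genes that changed, and also before genes that did not pass the test of expression, such as FDPS, MVK and NSDHL. Of the genes without a box, PMVK, LBR, CYP51A1, FADS1 and FADS2 did not pass either, and ELOVL6 was not analysed. Whether the boxes go with the changes in expression was not tested.

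**Figure D1:**
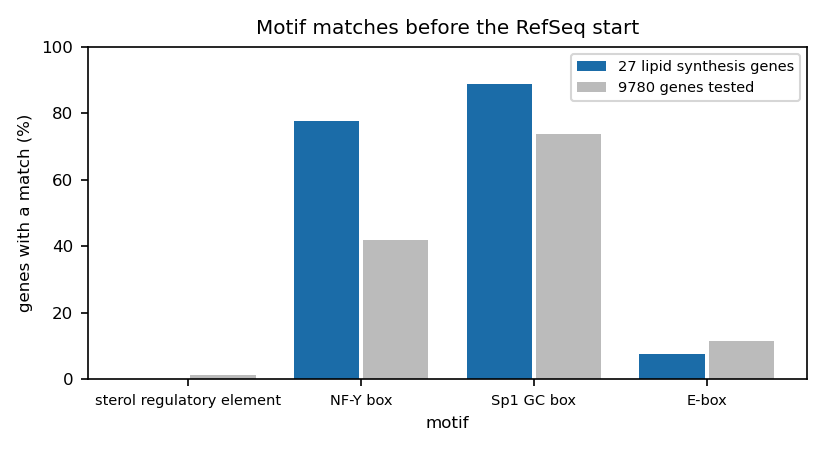
Share of genes (%, vertical axis) with at least 1 match to each of 4 motifs (horizontal axis) in the 250 bases before a RefSeq start, on either strand; blue bars are the 27 lipid synthesis genes with an entry and grey bars the 9780 tested genes with an entry. The blue bar stands furthest above the grey one for the NF-Y box, at 77.8% against 41.7%.

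Knockdown was compared with control to ask how transcripts of these macrophages differ between the 2 groups, which may also differ in transfection. Of the 30 genes, 1 rose and 2 fell at an adjusted p under 0.05 (edgeR quasi-likelihood, Benjamini-Hochberg over all 13405 genes), and 27 did not pass. Of all genes tested, 2.83% passed, 1.22% higher and 1.61% lower. MSMO1 rose, and HMGCS1 and TMEM97 fell, so the genes that passed lay in different directions within the list. The log2 fold change, knockdown minus control, was within 0.2 of 0 for 26 of the 30 (86.7%), against 77.4% of all genes tested. Its median was 0.03 over the 30 genes and -0.0019 over all genes tested. Its standard error had a median of 0.063 over the 30 genes and 0.091 over all genes tested. The shares within 0.2 of 0 are therefore not like for like.

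The direction was above 0 in 20 genes and below 0 in 10, against 6624 above and 6781 below over all genes tested. It was the same in all alternative fits for 21 of the 30. The 3 knockdown libraries lay entirely above the 3 controls in 4 genes, MSMO1, LBR, LSS and ELOVL5. Such separation upward was found in 9.61% of all genes tested. They lay entirely below in 2 genes, HMGCS1 and TMEM97, and separation downward was found in 10.4% of all genes. As shares of 30, these counts lay a little above and a little below those of all genes.

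**Figure D2:**
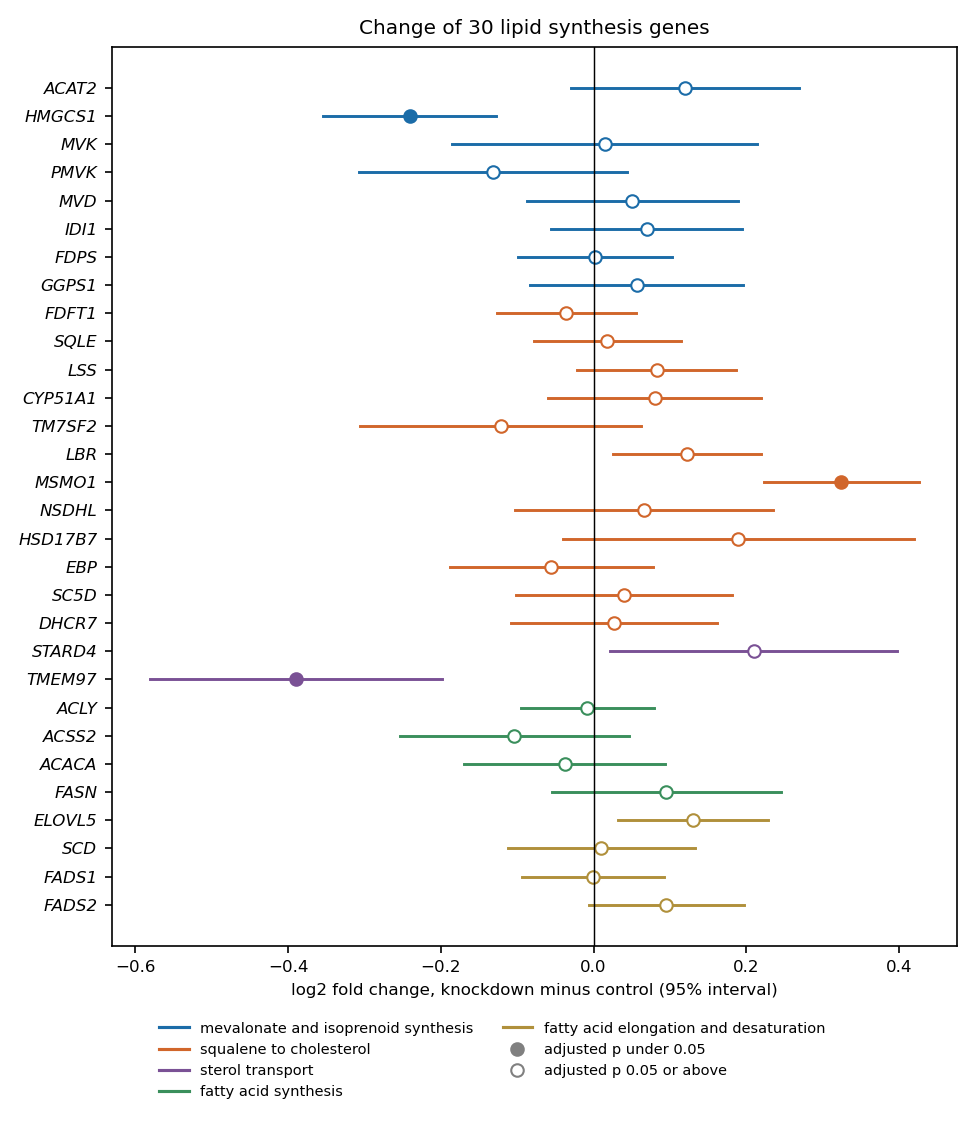
Log2 fold change, knockdown minus control (horizontal axis), with its 95% interval from edgeR for each of 30 genes in pathway order (vertical axis); colours give the 5 groups of the list and filled points an adjusted p under 0.05. MSMO1 lies apart on the right, HMGCS1 and TMEM97 on the left, and the other intervals lie within 0.5 of 0.

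MSMO1, the oxidase that begins removal of the methyl groups left on the early sterols after the CYP51A1 step, stood at 110, 104 and 103 CPM in control libraries 1 to 3 and at 135, 130 and 133 CPM in knockdown libraries 1 to 3. The groups were well apart, with the lowest knockdown library above the highest control. The mean went from 106 ± 3.26 to 132 ± 2.56 CPM (SD, n = 3 each), a rise of 25.2%. The log2 fold change was 0.32 ± 0.05 (SE), with a 95% interval from 0.22 to 0.43 and an edgeR adjusted p of 0.00114. It passed in all 13 alternative fits, and leaving out single libraries gave adjusted p-values between 0.000203 and 0.0168. MSMO1 (ENSG00000052802.12, GRCh38 chr4:165327623-165343160, plus strand) overlaps no other gene in GENCODE 29.

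HMGCS1, the cytosolic synthase that makes HMG-CoA at the entry of the mevalonate route, stood at 165, 150 and 170 CPM in the controls and at 138, 132 and 140 CPM in the knockdown. The groups did not overlap, and control replicate 2 was the control nearest to the knockdown libraries. The mean went from 162 ± 10.5 to 137 ± 4.26 CPM (SD, n = 3 each), a change of -15.4%, with a 95% interval of the log2 fold change from -0.35 to -0.13 (edgeR adjusted p = 0.0233). The call was lost without control replicate 3 (adjusted p = 0.0528) and without knockdown replicates 1, 2 or 3 (0.0826, 0.158 and 0.0825). The gene (ENSG00000112972.14, chr5:43289395-43313512, minus strand) overlaps exons of an antisense RNA, AC114947.2, that was not analysed here.

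TMEM97, a membrane protein that binds the cholesterol transporter NPC1, was at 22.9, 23.2 and 27.3 CPM in the controls and at 19.2, 18.3 and 18.5 CPM in the knockdown. The groups did not overlap, and control replicate 3 stood above the other controls. The mean went from 24.5 ± 2.49 to 18.7 ± 0.472 CPM (SD, n = 3 each), a change of -23.7%, with a 95% interval of the log2 fold change from -0.58 to -0.20 (edgeR adjusted p = 0.0289). The call was lost in DESeq2 (adjusted p = 0.0586) and when control replicate 2, control replicate 3 or a knockdown replicate was left out (0.0658 to 0.149). TMEM97 (ENSG00000109084.13, chr17:28319095-28328685, plus strand) shares exon positions with IFT20 on the opposite strand, and the sources used here do not give the strand setting of the counting. IFT20 was at 9.72 CPM in the controls and 9.65 CPM in the knockdown and did not pass (edgeR adjusted p = 0.961).

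Ratios of counts can be read within each library, without any scaling between libraries, but a ratio does not say which of its genes moved. The ratio of MSMO1 counts to HMGCS1 counts was 0.665, 0.696 and 0.607 in the controls and 0.975, 0.983 and 0.948 in the knockdown. The ratio of MSMO1 to SQLE, an enzyme of the same route that did not pass, was 0.403, 0.404 and 0.415 in the controls and 0.513, 0.50 and 0.496 in the knockdown. The ratio of HMGCS1 to FDPS was 0.887, 0.824 and 1.00 in the controls and 0.755, 0.749 and 0.783 in the knockdown. None of these ratios overlapped between the groups. They restate the counts given above and are given without a test because the genes were chosen for their changes.

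**Figure D3:**
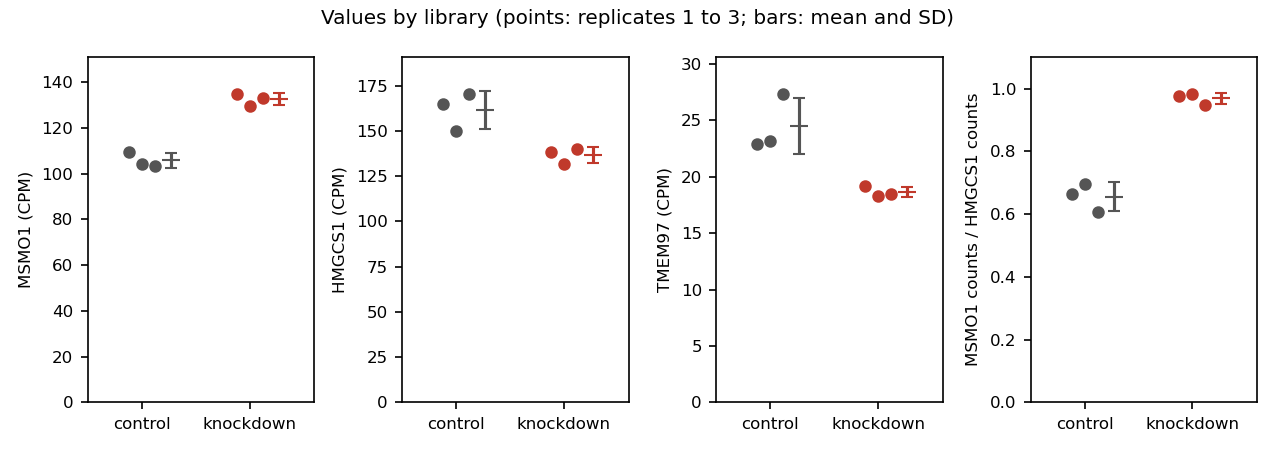
CPM of MSMO1, HMGCS1 and TMEM97 and the ratio of MSMO1 to HMGCS1 counts (vertical axes, from 0) in 3 control and 3 knockdown libraries; points are libraries and bars the mean and SD. The ratio lies at 0.607 to 0.696 in the controls and 0.948 to 0.983 in the knockdown.

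Apart from HMGCS1, the 7 other genes of mevalonate and isoprenoid synthesis did not pass, with log2 fold changes from -0.13 to 0.12. ACAT2, the cytosolic thiolase that makes acetoacetyl-CoA, was highest at 0.12, with 55.3, 46.2 and 53.3 CPM in the controls and 53.6, 58.7 and 55.3 CPM in the knockdown. Its groups overlapped. It shares exon positions on the opposite strand with SOD2, an abundant gene that fell from 2033 to 1695 CPM (edgeR adjusted p = 0.00501), and with TCP1, so its counts are less certain. The 3 steps that turn mevalonate into isopentenyl diphosphate gave 0.01 for the kinase MVK, -0.13 for the phosphomevalonate kinase PMVK and 0.05 for the decarboxylase MVD. MVK shares exon positions with MMAB on the opposite strand, and GGPS1 with TBCE on its own strand and ARID4B on the other. IDI1, the isomerase that makes the allylic isoprenoid unit, had 0.07, and GGPS1, which makes geranylgeranyl diphosphate, 0.06.

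FDPS, which makes farnesyl diphosphate, stood at 186, 182 and 170 CPM in the controls and at 183, 176 and 179 CPM in the knockdown. These libraries lay over each other, and the 95% interval of its log2 fold change ran from -0.10 to 0.10. It had the highest level per length of any of the 30 genes when divided by its longest coding transcript, at 121 ± 5.70 CPM per kb (SD, n = 3 controls). HMGCS1 stood at 46.1 ± 3.01 and MSMO1 at 46.6 ± 1.44 CPM per kb on the same scale, which differ by less than their spread, and MVK was lowest at 6.24 ± 0.136 CPM per kb.

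In the route from squalene to cholesterol, MSMO1 was the 1 gene of 12 to pass. FDFT1, the squalene synthase, had a log2 fold change of -0.04 and SQLE, the squalene epoxidase, of 0.02. SQLE was at 272, 258 and 250 CPM in the controls and at 263, 259 and 268 CPM in the knockdown, with all knockdown libraries inside the range of the controls. Its 95% interval ran from -0.08 to 0.11. SQLE led this group per length, at 87.8 ± 3.79 CPM per kb in the controls, and FDFT1 followed at 82.0 ± 1.95 CPM per kb. LSS, which closes the sterol rings, was at 94.1, 97.5 and 97.1 CPM in the controls and at 99.7, 105 and 101 CPM in the knockdown. These groups did not overlap, yet the difference of 0.08 did not pass (edgeR adjusted p = 0.464).

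CYP51A1, the lanosterol demethylase, had a log2 fold change of 0.08. The next reduction is made by TM7SF2 or LBR, which gave -0.12 and 0.12. LBR, which also anchors chromatin to the nuclear envelope, was at 165, 156 and 168 CPM in the controls and at 179, 176 and 178 CPM in the knockdown. Its groups did not overlap and its 95% interval ran from 0.03 to 0.22, but it missed the threshold over all genes (edgeR adjusted p = 0.193). TM7SF2 shares exon positions with VPS51 on the same strand.

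The partners of MSMO1 in removing these methyl groups had smaller differences that did not pass. NSDHL, the decarboxylating dehydrogenase, had a log2 fold change of 0.07 (95% interval from -0.10 to 0.24) and HSD17B7, the keto-sterol reductase, of 0.19 (from -0.04 to 0.42). HSD17B7 was at 12.4, 10.7 and 10.2 CPM in the controls and at 12.2, 13.1 and 12.6 CPM in the knockdown, with control replicate 1 inside the range of the knockdown. Its pseudogene HSD17B7P2, with which reads can be shared, held 6.43% as many counts. ERG28, the scaffold of these enzymes and not on the list of 31, had 0.12 (from -0.04 to 0.29). The ratio of MSMO1 to NSDHL counts was 4.31, 4.07 and 4.61 in the controls and 5.15, 5.15 and 5.17 in the knockdown.

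The last steps of the route did not pass. EBP, the sterol isomerase, gave -0.06, SC5D, a sterol desaturase, 0.04, and DHCR7, the final reductase on one branch, 0.03. SC5D and MSMO1 are both iron-dependent membrane oxidases, and SC5D was at 59.8, 52.6 and 51.2 CPM in the controls against 57.8, 53.6 and 56.8 CPM in the knockdown. Its libraries overlapped across the groups.

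STARD4, a soluble carrier that moves cholesterol between membranes, was at 48.0, 45.6 and 59.0 CPM in the controls and at 53.3, 58.6 and 64.1 CPM in the knockdown. Control replicate 3 lay within the knockdown range, and the groups overlapped. The log2 fold change of 0.21 had a 95% interval from 0.02 to 0.40 and did not pass (edgeR adjusted p = 0.266). Without control replicate 3 it was 0.33 and passed (adjusted p = 0.0285). STARD4 had the highest coefficient of variation among controls of the 30 genes, 14.1%, against a median of 6.28% over the 30 and 7.83% over all genes tested. Per length it stood at 11.0 ± 1.55 CPM per kb, near TMEM97 at 9.53 ± 0.969 CPM per kb.

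**Figure D4:**
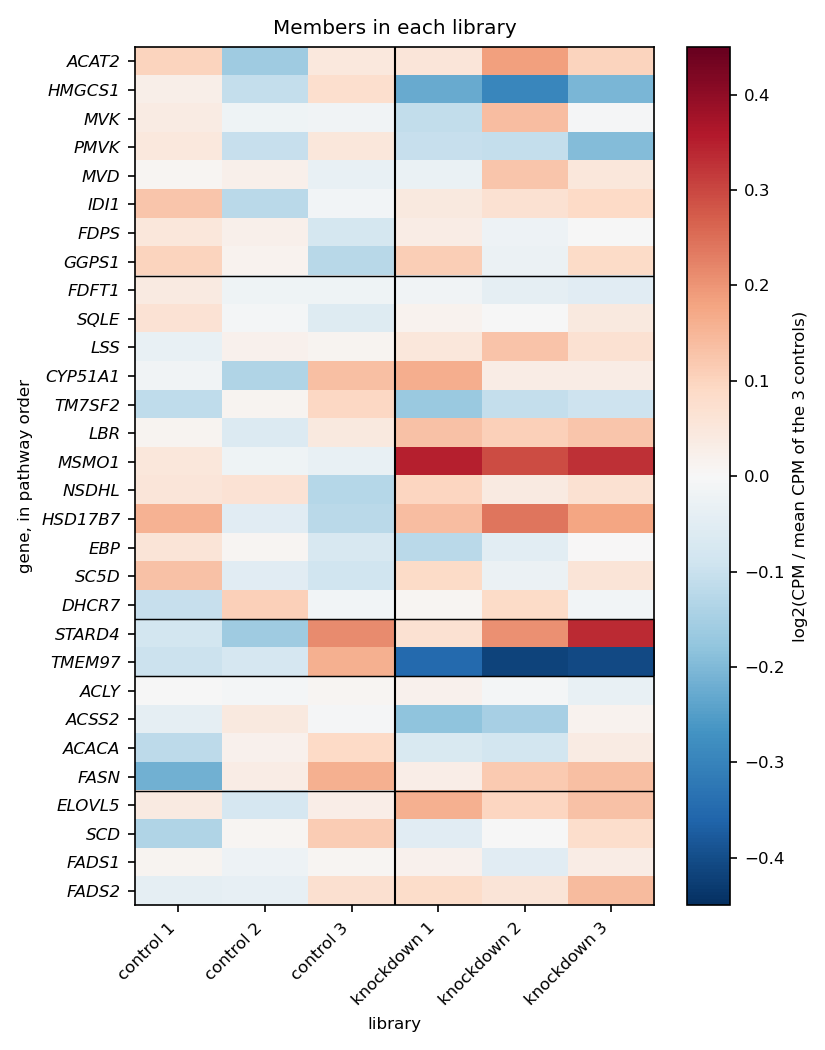
Level of 30 genes (rows, in pathway order) in each of 6 libraries (columns), as log2 of CPM over the mean CPM of the 3 controls (colour scale). MSMO1 is high and HMGCS1 and TMEM97 low in every knockdown library, while FASN ranges from 270 to 352 CPM and STARD4 from 45.6 to 59.0 CPM among the controls alone.

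None of the 4 genes of fatty acid synthesis passed in edgeR, DESeq2 or limma-voom, and 0 had an unadjusted p under 0.05, which 2025 of all 13405 genes tested had. ACLY, which makes cytosolic acetyl-CoA from citrate, was at 353, 351 and 355 CPM in the controls and at 358, 351 and 345 CPM in the knockdown, a log2 fold change of -0.01 with a 95% interval from -0.10 to 0.08. Its controls had a coefficient of variation of 0.633%. ACSS2, which makes acetyl-CoA from acetate, had the largest difference of the 4, -0.10, with 38.1, 40.3 and 39.0 CPM in the controls and 34.5, 35.3 and 39.6 CPM in the knockdown. Knockdown replicate 3 lay within the controls.

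ACACA, the acetyl-CoA carboxylase, had a log2 fold change of -0.04 (95% interval from -0.17 to 0.09). FASN, the fatty acid synthase, was at 270, 322 and 352 CPM in the controls and at 321, 342 and 345 CPM in the knockdown. The controls alone spanned more than all 3 knockdown libraries. Its log2 fold change of 0.10 had a 95% interval from -0.05 to 0.25, and it was 0.18 at most and -0.0010 at least across the alternatives.

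The desaturases and the elongase ELOVL5 did not pass in these tools either, and ELOVL5 was the 1 gene of the 4 with an unadjusted p under 0.05, against 2025 of 13405 over all genes. SCD, which places the first double bond in saturated chains, was at 387, 428 and 461 CPM in the controls and at 411, 425 and 449 CPM in the knockdown. All of its knockdown libraries lay inside the range of the controls, and the interval ran from -0.11 to 0.13. FADS1 and FADS2, the front-end desaturases of polyunsaturated chains, gave 0.00 (95% interval from -0.09 to 0.09) and 0.10 (from -0.01 to 0.20). They share exon positions on opposite strands, and FADS2 also with FEN1 on its own strand, so the split of their reads is less certain. FADS1 was at 225, 220 and 225 CPM in the controls and at 226, 215 and 228 CPM in the knockdown.

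ELOVL5, which lengthens polyunsaturated chains, was at 231, 213 and 229 CPM in the controls and at 251, 240 and 246 CPM in the knockdown. The groups did not overlap, and the log2 fold change was 0.13 with a 95% interval from 0.03 to 0.23. The gene missed the threshold over all genes (edgeR adjusted p = 0.166).

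Per length of the longest coding transcript, ACLY led fatty acid synthesis at 81.4 ± 0.515 CPM per kb and SCD the desaturases at 79.4 ± 6.90 CPM per kb (SD, n = 3 controls). With ELOVL5 at 72.8 ± 3.17 and FDFT1 at 82.0 ± 1.95 CPM per kb, these neighbours in the order mostly differed by less than their spread. FASN stood at 36.7 ± 4.79 and ACACA at 6.98 ± 0.501 CPM per kb. These levels rest on which transcript is used. With the median length of annotated coding transcripts, many of them partial, FASN (865 CPM per kb) and FADS1 (383 CPM per kb) came first instead, and FDPS stood at 149.6 CPM per kb.

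Added up within each library, the 22 genes of sterol synthesis and transport made up 1905, 1812 and 1854 CPM in the controls and 1900, 1883 and 1907 CPM in the knockdown. The 8 fatty acid genes made up 1748, 1824 and 1929 CPM in the controls and 1862, 1866 and 1927 CPM in the knockdown. In both sums the groups overlapped.

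The rest of the pathway was read from lists of 88 other genes, of which 83 had counts and 79 were tested. Of these 79, 2 rose and 1 fell (3.80%), close to the 2.83% of all genes tested, and the median log2 fold change was 0.03. The counts by list that follow are of 1 gene at most and are read against the same 2.83%. Among 3 other genes of sterol synthesis, ERG28 included, none passed in edgeR, DESeq2 or limma-voom, and 1 had an unadjusted p under 0.05, again against 2025 of 13405 genes.

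Among 11 genes of SREBP control, 1 passed. MBTPS1, the Golgi protease that makes the first cut in SREBP, was at 67.3, 63.4 and 64.4 CPM in the controls and at 86.8, 87.8 and 87.7 CPM in the knockdown. The groups were far apart, and it rose by 0.43 ± 0.05 (SE) on the log2 scale (edgeR adjusted p = 0.000225). The other genes of the control machinery did not pass. SREBF1 and SREBF2, which encode the SREBPs, gave -0.01 and 0.04, the escort SCAP 0.03, the second protease MBTPS2 -0.07, and INSIG1, which retains SCAP in the endoplasmic reticulum and is itself an SREBP target, -0.09.

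Among 16 genes of sterol uptake, storage and egress, ABCA1, the cholesterol exporter, rose. It was at 199, 187 and 200 CPM in the controls and at 218, 231 and 233 CPM in the knockdown (log2 fold change 0.22, 95% interval from 0.12 to 0.32, edgeR adjusted p = 0.0182). The call was lost without control replicate 2 or knockdown replicates 2 or 3 (adjusted p from 0.123 to 0.132).

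None of 13 genes of mevalonate side branches and none of 19 other genes of fatty acid synthesis, elongation and desaturation passed. At an unadjusted p under 0.05 there were 2 of 13 and 1 of 19, against 2025 of 13405 over all genes. ZMPSTE24, the protease that trims farnesylated prelamin A and 1 of the 13, had a log2 fold change of 0.17 (edgeR adjusted p = 0.0657). It passed in DESeq2, in limma-voom, with the replicate number as a block, and without control replicates 1 or 3. Of 17 genes of fatty acid activation and glycerolipid synthesis, ACSL5, a long-chain acyl-CoA synthetase, fell. It was at 59.7, 55.1 and 50.7 CPM in the controls and at 43.5, 44.7 and 43.8 CPM in the knockdown (log2 fold change -0.33, 95% interval from -0.47 to -0.19, edgeR adjusted p = 0.0130). The call was lost without control replicate 2 or any 1 knockdown replicate (adjusted p from 0.0642 to 0.0737).

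**Figure D5:**
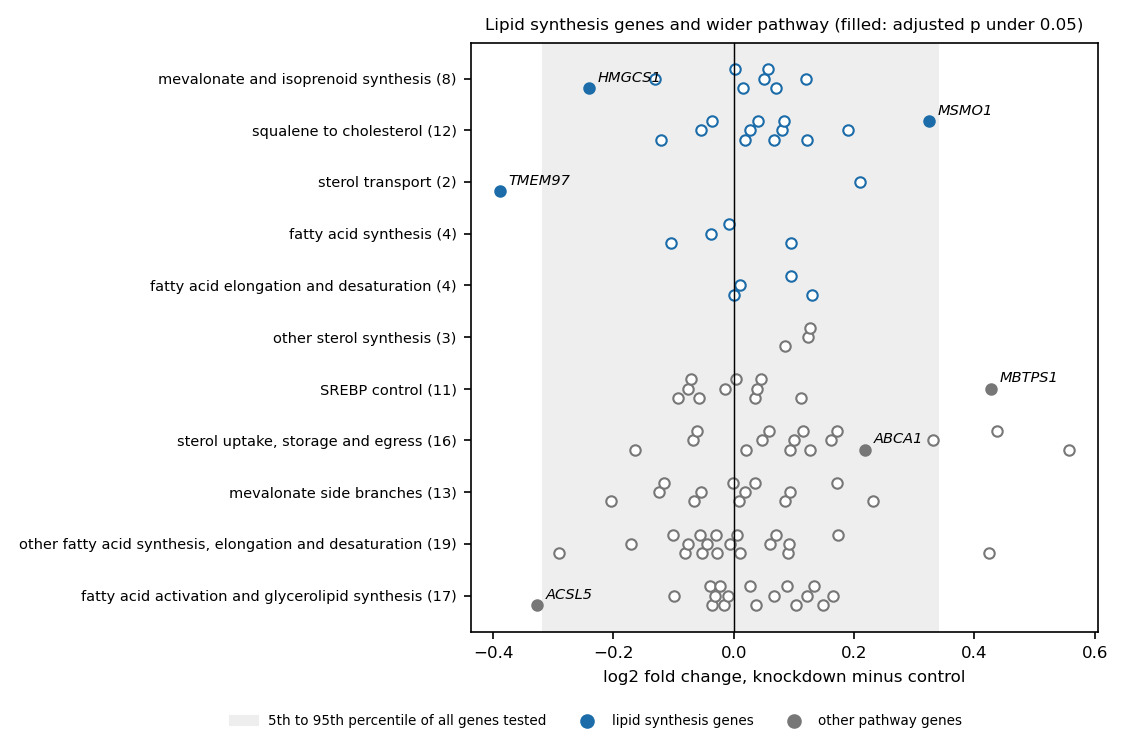
Log2 fold change, knockdown minus control (horizontal axis), of the lipid synthesis genes (blue) and 79 other genes of the pathway (grey), by list (vertical axis, with the number tested); filled points have an adjusted p under 0.05 and the band spans the 5th to 95th percentile of all genes tested. The filled points are HMGCS1, MSMO1, TMEM97, MBTPS1, ABCA1 and ACSL5.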

How the data were processed

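Polyadenylated RNA was sequenced from 3 control and 3 knockdown libraries, grouped by title. The deposited values are expected counts, 1 line for each gene symbol, all whole (100%), and no gene sums to less than 10. The build hg38 and the tools DESeq2 and Salmon 0.11.2 are named, without their roles, per the submitters' processing notes. Annotation and strand setting are not given in the sources used here. Estimated counts split reads between genes that share sequence.

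Counts were tested as deposited with edgeR 4.0.16 quasi-likelihood (two-sided, TMM scaling, genes kept by filterByExpr, a model of group alone, Benjamini-Hochberg over 13405 genes, threshold 0.05). CPM values use the TMM factors. The standard error is the log2 fold change divided by the square root of F, and 95% intervals use the test's degrees of freedom. A floor of 3 counts came to 0.21 to 0.289 CPM. Within groups, chi-square per degree of freedom between libraries ran from 1.91 to 6.79, so none were duplicates.

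Alternatives were DESeq2 1.42.0, limma-voom (limma 3.58.1), RLE and upper-quartile factors, testing unfiltered genes, requiring 1 CPM or more in 3 libraries, a block for replicate number, omission of each library in turn, and the transcript length used for levels per kb. Positions, overlaps and lengths came from GENCODE 29 (GRCh38), promoters from RefSeq (GRCh38.p14). Other tools were R 4.3.3, matplotlib 3.10.9, pandas 2.3.3, numpy 2.4.6, scipy 1.17.1 and Python 3.11.15. The tests were also run on counts simulated from the fitted spread of these libraries. That run cannot check replication or reads shared between genes.

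Every gene on the list is named. Values per library are given for genes past the threshold and, in each of the 5 groups, for the largest change and the highest level per kb, and further genes were shown in full after their values were seen. The genes and lists were chosen with earlier results of these data known. Some genes of the wider pathway are not reported here.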

Additional observations from a re-analysis of the deposited data

How the results depend on the processing

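Of the 30 lipid synthesis genes, 26 passed neither the test as reported nor any of 13 alternatives, and MSMO1 passed in all of them. HMGCS1, TMEM97 and STARD4 changed sides of the threshold, as given beside their values. The direction was the same in every alternative for 21 of the 30, and no gene that passed in any fit changed direction. Genes lower in knockdown numbered 2 as reported and 1 with DESeq2. With any 1 library left out, 1 to 2 of the 30 rose and 0 to 2 fell. The counts over all genes were then 55 to 214 higher and 84 to 328 lower, against 163 and 216 as reported. Of the other pathway genes, 1 to 4 rose and 0 to 2 fell. The median log2 fold change of the 30 genes ran from 0.010 (without control replicate 3) to 0.042, against 0.034. The cause of these shifts was not tested.

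With the replicate number as a block, 200 genes were higher and 288 lower, with 1 of the 30 higher and 2 lower, as without it. Of the other pathway genes 3 were higher with the block against 2 without it, ZMPSTE24 being added, and 1 was lower in both. Deviations of same-numbered libraries from their group means had correlations of 0.046, 0.10 and 0.083, so the numbers were not taken to pair the samples, although each library correlated best with its own number. The levels per kb moved with the transcript length used. The 95% interval of HSD17B7, the least abundant at 11.1 CPM, spans from -0.04 to 0.42. That of STARD4, at 50.9 CPM, spans from 0.02 to 0.40. The parts of depth and of spread between replicates in these widths were not tested.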

Other observations

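Some of the 30 genes ordered the control libraries alike. With 3 libraries few orders are possible, and the share of all genes tested in each order is not given here. FASN, SCD and ACACA were each lowest in control replicate 1 (270, 387 and 64.2 CPM) and highest in control replicate 3 (352, 461 and 74.0 CPM). So were FADS2 and the sterol genes TM7SF2 and TMEM97. Among the sterol genes SQLE, FDPS, GGPS1, SC5D, EBP, MSMO1 and HSD17B7, control replicate 1 was the highest control and control replicate 3 the lowest, with SQLE at 272 and 250 CPM. The other fatty acid genes ACLY, ACSS2, ELOVL5 and FADS1 followed neither order, and the median coefficient of variation among controls was 4.42% over the 8 fatty acid genes and 6.83% over the 22 sterol genes. In the knockdown libraries the coefficient of variation had a median of 3.33% over the 30 genes, against 6.28% in the controls, and over all genes tested it was 5.91% against 7.83%. These orders were noticed after the values were seen and were not tested, so they are not read as a shared pattern.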
